A study of Mus musculus with 32 samples.

Results

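The genes described here encode the proteasome and its regulators. Membership was set by a rule on gene names, chosen with earlier results of these data known. It takes every mouse gene called Psma, Psmb, Psmc, Psmd, Psme, Psmf or Psmg followed by a number. The inducible catalytic genes Psmb8, Psmb9 and Psmb10 are left out. The rule found 45 genes among 25284 gene names in 4 tables of RNA counts. Of these, 32 encode subunits of the core particle and the regulatory particle, 7 encode assembly chaperones, 4 encode activators, 1 (Psmf1) encodes an inhibitor and 1 (Psmb11) encodes the catalytic subunit of the thymus.

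The proteasome is the protease that destroys proteins tagged with ubiquitin. Its barrel, the core particle, is built of alpha rings, which form the gate, and beta rings, which hold the catalytic sites. The regulatory particle caps the barrel: a base with a ring of ATPases unfolds the substrate and a lid removes the ubiquitin chain. The activators Psme1 and Psme2 form an alternative cap, and interferon replaces the constitutive catalytic subunits by Psmb8, Psmb9 and Psmb10 in the immunoproteasome. Proteasome inhibitors are used against blood cancers, and haematopoietic stem cells (HSCs) are known for keeping protein turnover under tight control.

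The study asked what PRDM16, a zinc-finger transcriptional regulator needed by HSCs, does through its full-length form (f-PRDM16) and its short form (s-PRDM16). The first table holds leukaemia cells driven by the MLL-AF9 fusion oncogene and sorted from moribund mice, in 4 groups of 3 libraries. Of these, WT+EV is wild type and KO+EV is knocked out for Prdm16, each carrying only an empty vector, whereas KO+f and KO+s are knockouts in which f-PRDM16 or s-PRDM16 was overexpressed. The other 3 tables hold HSCs sorted as Lin-cKit+Sca1+CD48-. They compare knockout with wild-type adult bone marrow (BM, 4 libraries each), knockout with wild-type fetal liver (FL, 3 each), and fetal liver lacking f-PRDM16 and expressing s-PRDM16 only with its own wild type (FLf, 3 each, a line marked 47bp in the labels). Strain, age beyond adult or fetal, the method of deletion and the exons removed are not given in the sources used here. The BM and FL column headers carry the mark VAV, which the labels do not explain. Replicates are described as independent, without saying whether leukaemia replicates came from separate transductions. The p-values therefore measure the spread between these libraries.

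Prdm16 itself was counted at 0.43 to 1.04 CPM (counts per 1000000 gene counts of the library) in WT+EV and at 0 to 0.095 in KO+EV. It reached 242 to 335 CPM in KO+f and 179 to 295 in KO+s. In FL it was 25.5 to 39.8 CPM in wild type and 10.8 to 24.6 in knockout, and in FLf 13.2 to 34.7 and 6.29 to 9.81. In BM the libraries labelled knockout (13.4 to 41.3 CPM) overlapped the wild type (10.5 to 53.4), and with the removed exons unknown this total over the whole gene does not check those labels. Depth was 16353584 to 23785307 counts per library in leukaemia, 22490805 to 29343602 in BM, 26715538 to 33246080 in FL and 35503288 to 44952448 in FLf. The HSC tables held Hlf and Mecom at 18.4 CPM or more in every library, and leukaemia held them at 0.183 to 21.5 and 0 to 2.16. Procr and Slamf1 stayed under 1 CPM in leukaemia and fell to 4.45 and 1.90 CPM in FLf. Kit overlapped, at 138 to 445 CPM in leukaemia and 166 to 413 in FL, and Cd34 reached 117 CPM in leukaemia. Cd48, which the sort selects against, lay between 5.87 and 31.1 CPM in BM and FL and reached 181 in FLf. Libraries with high granulocyte sums are named beside the results.

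Nearly every proteasome gene was expressed in every group. In leukaemia 43 of the 45 passed the filter on low counts, in BM 44, in FL 43 of the 44 listed and in FLf 44. Psmb11 had 7 counts over the 12 leukaemia libraries, 2 in BM, 5 in FL and 5 in FLf. Psma8, an alpha subunit known from meiotic cells, had 1 count in leukaemia, 7.58 to 25.3 CPM in BM and 4.94 to 14.2 in FLf, and was not analysed here in FL.

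Summed over the members, proteasome transcripts took the smallest share of the library in leukaemia with s-PRDM16. The sum was 5945, 4810.1 and 5097 CPM in the 3 WT+EV libraries and 5111, 5444 and 5527 in KO+EV. It was 4523.5, 4972 and 4832 CPM in KO+f and 3774, 4033 and 4355 in KO+s. Every KO+s library lay below every other leukaemia library, and every KO+f library below every KO+EV library. In HSCs the means were 7792 ± 1416 CPM in BM wild type and 7658 ± 378 in BM libraries labelled knockout (SD, n = 4). They were 7236 ± 462 and 7478 ± 297 in FL, and 11302 ± 827 and 11012 ± 1586 in FLf (SD, n = 3). The 2 genotypes overlapped in each HSC table. Within each pair of same-numbered FL libraries the knockout was the higher, with 6744 and 7153, 7304 and 7544.5, and 7660.4 and 7735 CPM. The labels state no such pairing. The leukaemia libraries were made without the low-input amplification that the labels give for the HSC tables, so preparation and cell type cannot be told apart between tables.

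**Figure D1:**
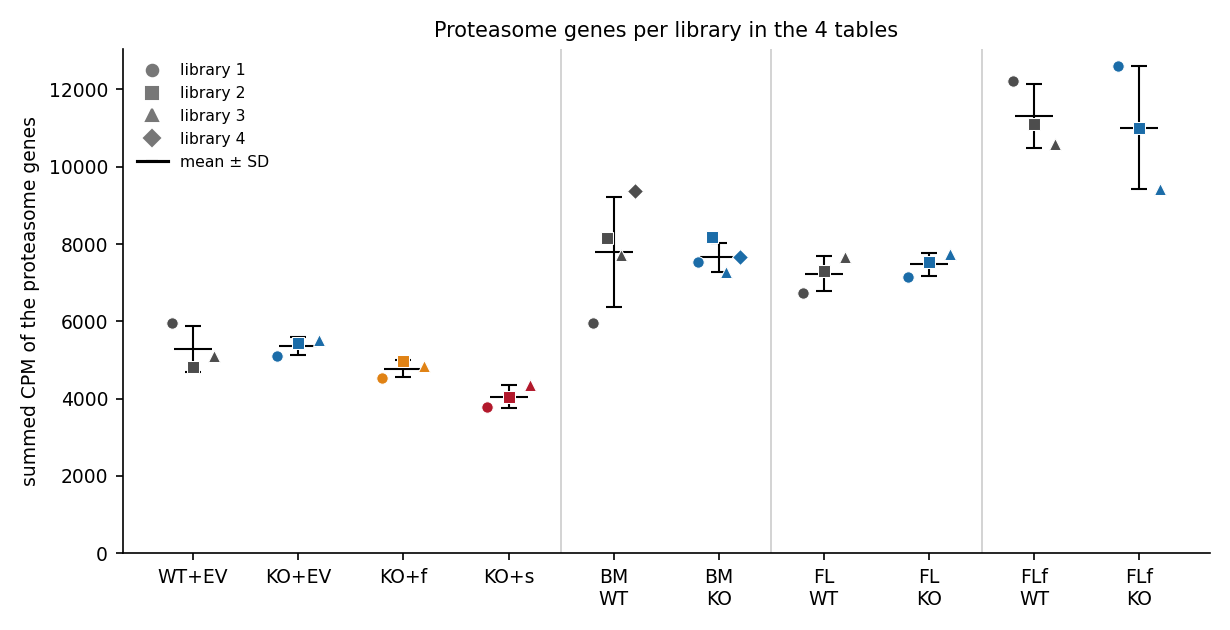
Summed CPM of the proteasome genes (vertical axis, from 0) in each library of the 10 groups, with group mean ± SD. The KO+s libraries, at 3774 to 4355 CPM, are the lowest of the 32, and the FLf libraries are the highest.

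Per kilobase of transcript the subunits of one particle were far from equal in every group. Transcript lengths came from GENCODE vM21, which may not be the annotation behind the counts. In KO+EV the 31 detected subunits of the core and regulatory particles ran from 16.3 CPM per kb (Psma3) through a median of 90.5 to 246 (Psma6), and 25 of 31 lay within 2-fold of the median. In KO+s the range was 12.4 (Psma3) to 165 (Psma6) around a median of 62.5, again with 25 of 31 within 2-fold. In BM, FL and FLf Psma7 was the highest, at 408, 371 and 573 CPM per kb in wild type.

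Loss of Prdm16 alone left no proteasome gene past the threshold in leukaemia. In KO+EV against WT+EV, 0 of 43 members passed an adjusted p of 0.05 in edgeR's quasi-likelihood test, against 0.903% of all genes passing upward, 1.2% downward and 2.1% in either direction. DESeq2 also called 0, and 6 of 43 members had an unadjusted p under 0.05, against 18.1% of all genes. The median log2 change was 0.05, and 16 of 43 members lay below 0, against 49.7% of all genes. The 3 smallest p-values belonged to Psmd7 (0.46 ± 0.14, adjusted p = 0.124), Psmc1 (0.59 ± 0.19, adjusted p = 0.131) and Psmd3 (0.39 ± 0.14, adjusted p = 0.174), where ± is the standard error (SE) of the log2 change.

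With s-PRDM16 overexpressed in knockout cells, transcripts of both the cap and the barrel lay lower. In KO+s against KO+EV, 17 of 43 members fell, where 16.6% of all genes tested fell, and 1 member rose, where 15.9% of all genes rose. The median log2 change of the members was -0.32, against -0.01 over all genes, and 39 of 43 members lay below 0, against 50.6% of all genes. CPM ranges of the 2 groups did not overlap for 27 members that were lower, against 30.2% of all genes, and for 1 that was higher, against 20.9%. Leaving out KO+s library 1 brought the calls to 10 lower and 1 higher. Of the 18 genes called, 11 passed in all 6 fits that left out 1 library.

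The ATPases of the base, the motor that pulls substrate into the barrel, had 5 of 6 members lower, with a median log2 change of -0.50. Psmc1, whose tail helps open the gate of the alpha ring, was counted at 151, 186 and 225 CPM in KO+EV and at 75.8, 80.6 and 78.2 in KO+s. The highest KO+s library lay far under the lowest KO+EV library, and the log2 change was -1.18 ± 0.19 (edgeR adjusted p = 0.00123), the largest fall of any member. The WT+EV libraries held 156, 114 and 113 CPM, so KO+s was below both groups that carry the empty vector. Psmc2, Psmc3, Psmc4 and Psmc5 fell by 0.38 to 0.53 on the log2 scale. Psmc6 was the exception at -0.03 ± 0.16 (adjusted p = 0.894).

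Among the other base subunits Psmd2, a scaffold of the base and a docking site for ubiquitin shuttles, stood at 305, 345 and 344 CPM in KO+EV. In KO+s it was 219, 225 and 216 CPM, a log2 change of -0.51 ± 0.11 (edgeR adjusted p = 0.00468) without overlap. Its partner scaffold Psmd1 fell by 0.43 (adjusted p = 0.0089). The ubiquitin receptor Psmd4 did not pass (-0.11 ± 0.11, adjusted p = 0.479).

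The lid had 4 of 8 members lower. Psmd7, which pairs with the deubiquitinase Psmd14, was counted at 167, 190.1 and 129 CPM in KO+EV and at 72.8, 101 and 79.6 in KO+s (-0.85 ± 0.15, edgeR adjusted p = 0.0016). Psmd3, a structural subunit of the lid, was counted at 194, 215 and 174 CPM in KO+EV and at 109.6, 118 and 101 in KO+s (-0.74 ± 0.14, adjusted p = 0.00299). Neither gene's ranges overlapped. Psmd12 fell by 0.47 and Psmd14 itself by 0.34, the latter in only 1 of the 6 fits that left out a library. Psmd8 was at -0.03 ± 0.11. The WT+EV libraries held Psmd7 at 119, 115 and 125 CPM and Psmd3 at 129, 176 and 146. In KO+s against WT+EV 1 of 8 lid members passed in edgeR, Psmd12, whereas Psmd7 and Psmd3 did not.

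The barrel held single calls. In the alpha ring 1 of 7 fell, Psma5 (-0.71 ± 0.21, adjusted p = 0.0254), and among the beta subunits without catalytic site 1 of 4, Psmb2 (-0.34 ± 0.11, adjusted p = 0.0417), which passed in 0 of the 6 fits with a library left out. Median log2 changes were -0.32 in both groups, and SEs reached 0.23 in the alpha ring. Of the 3 constitutive catalytic genes Psmb5, the chymotrypsin-like site that bortezomib blocks, fell from 49.1, 49.5 and 52.4 CPM to 32.1, 33.8 and 32.6 (-0.53 ± 0.13, edgeR adjusted p = 0.00973). The KO+s libraries lay closely together and below all others. Psmb6 (-0.32 ± 0.14, adjusted p = 0.11) and Psmb7 (-0.22 ± 0.16, adjusted p = 0.332) did not pass. All 31 core and regulatory subunits had a log2 change below 0, and whether the roles differ in their fall was not tested.

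Assembly chaperones were called for the barrel. Of these, 3 of 4 fell: Psmg1 by 0.54, Psmg2 by 0.62 and Psmg3 by 0.64 on the log2 scale, with Psmg4 at 0.05 ± 0.14. Of the chaperones of the base, 0 of 3 passed, with Psmd9 nearest at -0.47 ± 0.17 (edgeR adjusted p = 0.0507).

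Among the activators 1 of 4 rose. Psme1 was counted at 148, 145 and 84.3 CPM in KO+EV and at 190.1, 197 and 189 in KO+s, and rose by 0.71 ± 0.17 (edgeR adjusted p = 0.00828). The groups did not overlap, and Psme1 passed in all 6 fits with a library left out. KO+EV library 3 was its low point. Psme2, the partner of Psme1, was at 22.3, 25.4 and 15.2 CPM against 25.2, 27.0 and 27.0 and did not pass (0.43 ± 0.23, adjusted p = 0.165). Reads of Psme2 may be shared with its near-identical copy Psme2b. Psme3, the nuclear activator, was at -0.31 ± 0.12 (adjusted p = 0.0732), Psme4 at 0.16 ± 0.12 and the inhibitor Psmf1 at -0.25 ± 0.13, none of them past the threshold.

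**Figure D2:**
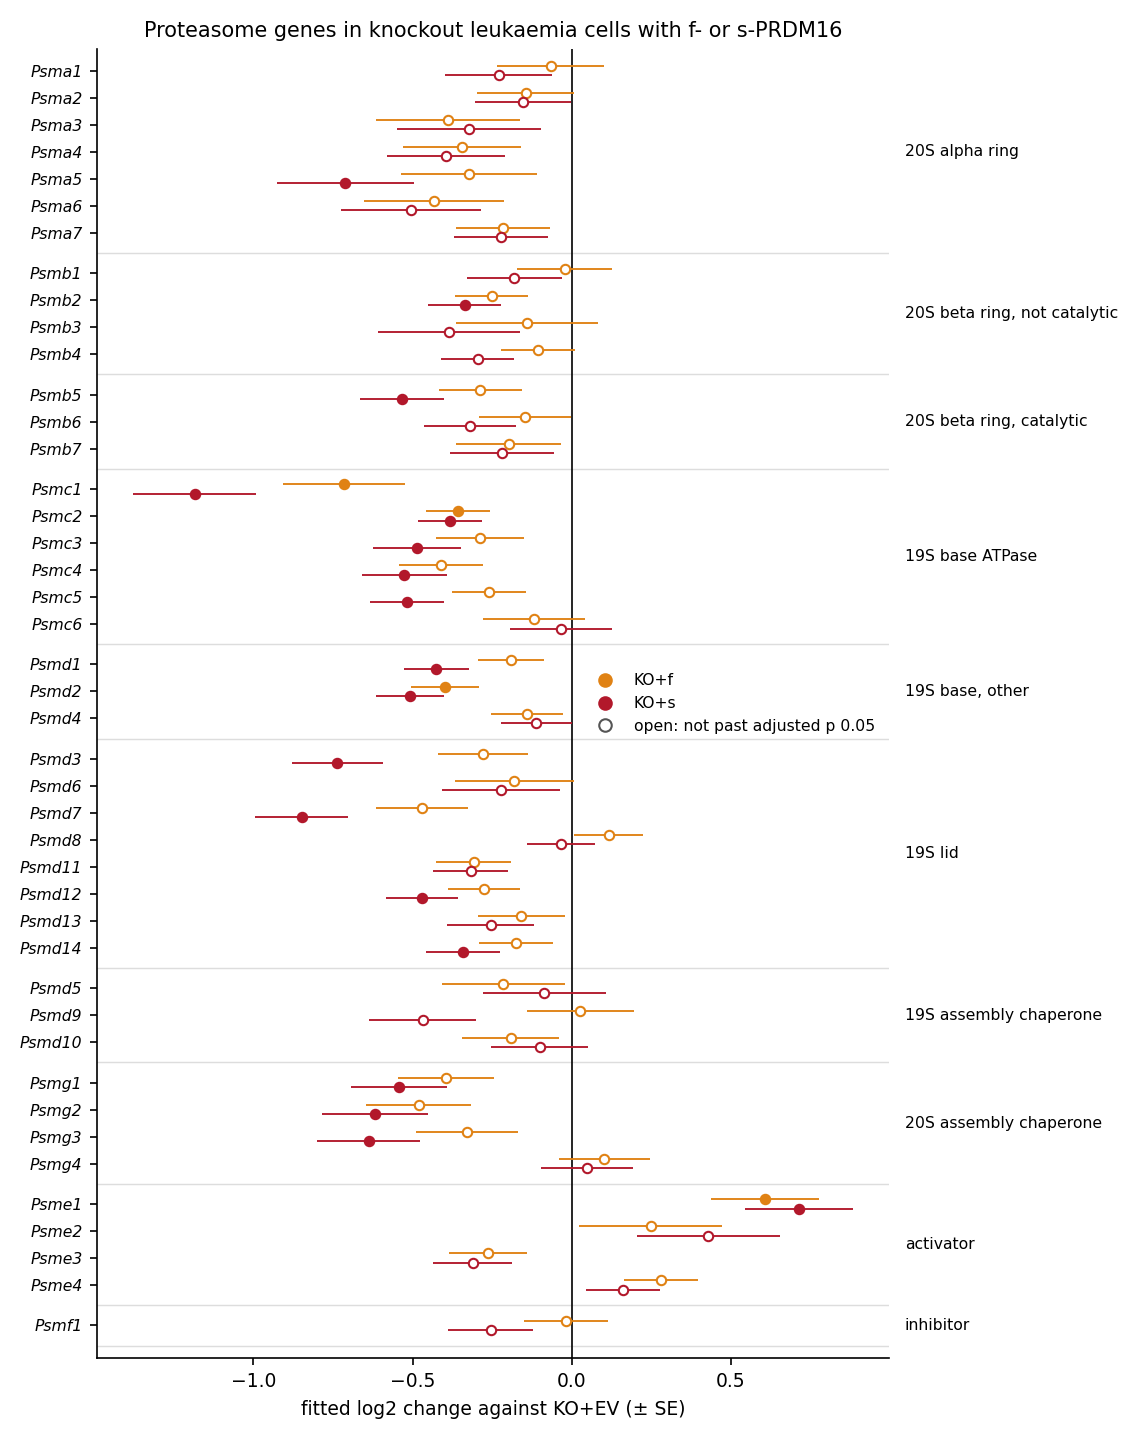
Fitted log2 change against KO+EV (horizontal axis, ± SE) of the 43 proteasome genes tested in leukaemia, grouped by role, for KO+f and KO+s. Filled points passed an adjusted p of 0.05. Psmc1 lies farthest to the left, at -1.18 in KO+s, and Psme1 farthest to the right, at 0.71.

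Some members share a promoter motif, held both by members that fell and by members that did not. The stretches printed below were chosen with the KO+s results known and are not all that hold these motifs. RefSeq promoters (GRCm38.p6, 250 bases before to 50 after each start) matched 37 of the 45 genes. All 4 motifs were searched on both strands, and none of their 45 matches in these promoters overlapped a match of another motif. The ETS-type motif CCGGAAGT was found in 9 of 37 members (24.3%), against 4.31% of all 27025 genes and 8.96% of the 8887 coding genes tested in leukaemia. The CCAAT box was in 35.1% of members, 41.1% of all genes and 43.4% of the coding genes tested. In the same order, the antioxidant-type core TGACNNNGC was in 16.2%, 14.0% and 17.3%. The interferon-type core (GAAA and GAAA with 2 bases of any kind between) was in 13.5%, 3.99% and 3.77%. Capitals mark the motif, read in the direction of the gene, so that ACTTCCGG is the ETS-type motif on the other strand.
Psmc1, fell in KO+s and KO+f, chr12:100110162-100110191 (+): ttggtggatgcACTTCCGGcggtggcgatt
Psmc2, fell in KO+s and KO+f, chr5:21785179-21785208 (+): gaccagtgagcACTTCCGGgatggggctcg
Psmd12, fell in KO+s, chr11:107479498-107479527 (+): gatgagcgggcgACTTCCGGtgcgagtgac
Psmd6, did not pass, chr14:14120972-14121001 (-): cagagacgcgaCCGGAAGTcagactggcgg
Psmb5, fell in KO+s, chr14:54618024-54618053 (-): acgtgaagttgTGACGTCGCggcgttgcca
Psmd9, did not pass, chr5:123228148-123228177 (+): tatctagccggTGACCCCGCccacttccaa
The first 4 lines hold the ETS-type motif and the last 2 the antioxidant-type core, which Nfe2l1 and Nfe2l2 are known to bind. In GENCODE vM21 the Psmc1, Psmd12 and Psmd6 windows overlap exons of the same gene, the Psmc2 window overlaps exons of Dnajc2, and the Psmb5 and Psmd9 windows overlap none. In KO+s 4 of the 9 members with the ETS-type motif fell (median log2 change -0.38), and 8 of the 27 tested members without it (median -0.32). For the antioxidant-type core these were 2 of 6 (-0.39) and 10 of 30 (-0.31), for the CCAAT box 3 of 12 (-0.32) and 9 of 24 (-0.32), and for the interferon-type core 0 of 5 (-0.11) and 12 of 31 (-0.32). A match describes letters in a window and not a bound site.

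With f-PRDM16 the same test called few members. In KO+f against KO+EV, 3 of 43 fell, where 4.39% of all genes fell, and 1 rose, where 6.88% of all genes rose. The median log2 change was -0.21, against -0.01 over all genes, and 37 of 43 members lay below 0, against 51.1% of all genes. An unadjusted p under 0.05 was found for 14 of 43 members and 29.1% of all genes. Ranges did not overlap for 17 members that were lower, against 15.8% of all genes, and for 4 that were higher, against 18.2%. Psmc1 (103, 105 and 145 CPM) fell by 0.71 ± 0.19 (edgeR adjusted p = 0.0346), Psmd2 (251, 244 and 276 CPM) by 0.40 ± 0.11 (adjusted p = 0.0364) and Psmc2 by 0.36 ± 0.10 (adjusted p = 0.0418). For Psmc2 the 3 KO+f libraries, at 129, 124 and 127 CPM, lay under the KO+EV libraries at 157, 164 and 155. Psme1, at 197, 221 and 162 CPM, rose by 0.61 ± 0.17 (adjusted p = 0.0409).

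Of these KO+f calls, 0 passed in every fit that left out 1 library. Over those fits the log2 changes kept their sign. They ran from -0.89 to -0.50 for Psmc1, -0.47 to -0.32 for Psmd2, -0.39 to -0.32 for Psmc2 and 0.42 to 0.72 for Psme1. Leaving out KO+EV library 2, KO+f library 1 or KO+f library 2 left 0 members called, and leaving out KO+EV library 3 left 1. Without KO+EV library 3 the median log2 change was -0.12 in KO+f and -0.23 in KO+s, and 13 members remained called lower and 1 higher in KO+s. The catalytic genes did not pass in KO+f: Psmb5 was at -0.29 ± 0.13 (edgeR adjusted p = 0.17), Psmb6 at -0.15 ± 0.14 and Psmb7 at -0.20 ± 0.16. Both sets of changes share the KO+EV libraries, so their likeness carries no independent weight.

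**Figure D3:**
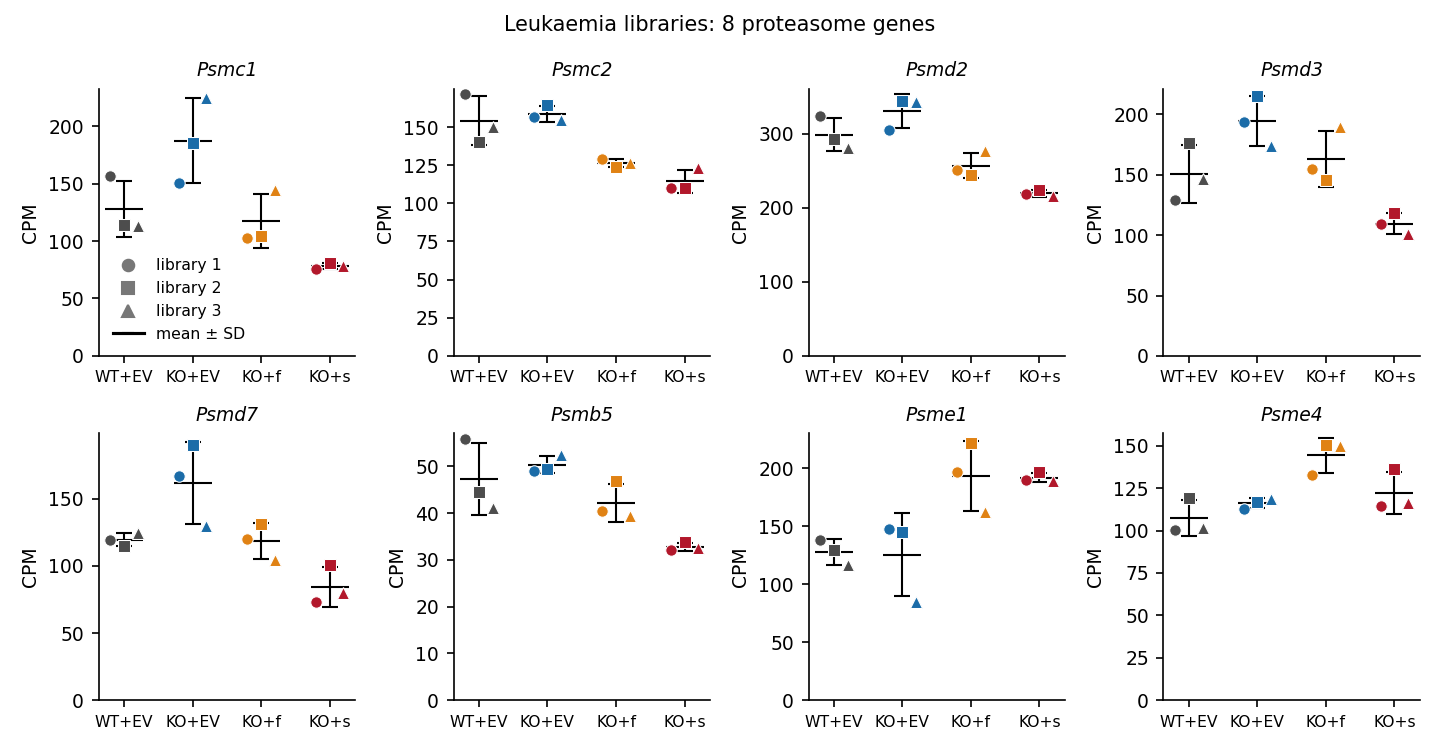
CPM (vertical axes, from 0) of 8 proteasome genes in the 12 leukaemia libraries, with group mean ± SD. Psmc1, Psmc2, Psmd2, Psmd3, Psmd7 and Psmb5 are lowest in KO+s, whereas Psme1 is higher in KO+f and KO+s than in the groups with empty vector.

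Compared with each other, the isoforms showed no member past the threshold. In KO+s against KO+f, 0 of 43 members passed in edgeR, against 2.05% of all genes upward, 1.76% downward and 3.81% in either direction, and DESeq2 called 0. The median log2 change was -0.12, against -0.02 over all genes, and 6 of 43 had an unadjusted p under 0.05, against 22.5% of all genes. Of the 43, 36 lay below 0, against 52.2% of all genes. Ranges did not overlap for 21 members that were lower, against 24% of all genes, and for 0 that were higher, against 9.61%. The smallest p-values belonged to Psmd3 (-0.46 ± 0.14, adjusted p = 0.0871), Psmd9 (-0.50 ± 0.17, adjusted p = 0.111) and Psmd7 (-0.38 ± 0.15, adjusted p = 0.152). In all 3 the KO+s libraries lay below the KO+f libraries. Against KO+EV 17 members fell with s-PRDM16 and 3 with f-PRDM16, but the direct test between the isoforms called 0 members. The difference between those 2 counts was not itself tested.

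Against wild-type leukaemia, a comparison added after seeing the data, KO+s had 14 of 43 members lower and 1 higher, where 11.9% of all genes fell and 11.8% rose, together 23.7%. In it 38 of 43 members lay below 0, against 50.7% of all genes, and ranges did not overlap for 26 that were lower, against 28.6%. The member with the smallest p was again Psme1 (0.70 ± 0.17, edgeR adjusted p = 0.0126), at 139, 129 and 116 CPM in WT+EV. It was followed by the alpha subunit Psma1 (-0.67 ± 0.17, adjusted p = 0.0152), counted at 370.0, 257 and 287 CPM in WT+EV and at 154, 159 and 218 in KO+s. Psmd12 (-0.43 ± 0.11), Psmg2 (-0.61 ± 0.17) and Psmc5 (-0.42 ± 0.12) also passed. Without KO+s library 1 or without WT+EV library 1, only Psme1 was left. Without KO+s library 2 there were 7 calls and without WT+EV library 3 there were 8.

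In KO+f against WT+EV, 2 of 43 members rose, where 6.11% of all genes rose, and 0 fell, where 3.86% of all genes fell, together 9.97%. In it 35 of 43 members lay below 0, against 50.5% of all genes. Those called were Psme1 (0.59 ± 0.17, edgeR adjusted p = 0.0478) and Psme4, an activator linked to histone turnover (0.42 ± 0.12, adjusted p = 0.0414). Psme4 was at 101, 119 and 101 CPM in WT+EV and at 133, 150.4 and 149.95 in KO+f, without overlap. Psma1 (-0.50 ± 0.17), Psmg2 (-0.48 ± 0.17) and Psmc2 (-0.29 ± 0.10) had the next smallest p-values and did not pass. Without any one of KO+f library 1 or 2 or WT+EV library 1 or 3 there were 0 calls, and without KO+f library 3 or WT+EV library 2 there was 1.

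Proliferation and differentiation genes also differed between the leukaemia groups. Summed CPM of 15 proliferation genes (such as Mki67, Pcna and Mcm2) was 5337 to 6449 in WT+EV, 5921 to 6407 in KO+EV, 4143 to 4963 in KO+f and 3648 to 4167 in KO+s. All of these genes were detected above 1 CPM. Summed CPM of 7 monocyte and macrophage genes (such as Lyz2 and Csf1r), also all detected, was 510 to 789 in WT+EV, 371 to 559 in KO+EV, 681 to 1375 in KO+f and 2783 to 4140.1 in KO+s. KO+EV library 3 stood apart, with 54451 CPM over 11 granulocyte genes against 13130.2 and 13143 in its group. The KO+s libraries held 24561, 24120 and 27008 CPM over these genes, above every WT+EV library (10194.5 to 17660) and every KO+f library (12709 to 17888). The part of these differences in the proteasome results was not tested, and in bulk libraries fewer cells of a type cannot be told apart from less RNA per cell.

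Some genes that work with the proteasome were called too, though in both directions together at a share near that of all genes. Of 32 related genes tested, 8 (25%) fell and 2 (6.25%) rose in KO+s against KO+EV. Of all genes, 16.6% fell and 15.9% rose, together 32.4%. Uba1, the main enzyme that activates ubiquitin, was at 843, 957 and 759 CPM in KO+EV, at 562, 464 and 633 in KO+f and at 479, 463 and 439 in KO+s. It fell by 0.80 ± 0.14 in KO+s (edgeR adjusted p = 0.0016) and by 0.65 ± 0.14 in KO+f (adjusted p = 0.0142), without overlap. Both proteasome-bound deubiquitinases fell in KO+s, Uchl5 by 0.56 (adjusted p = 0.00586) and Usp14 by 0.56 (adjusted p = 0.00605), as did the unfoldase Vcp, by 0.50 (adjusted p = 0.00718).

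By role, in KO+s the fall took in 2 of 3 genes of the p97 unfoldase, 2 of 3 proteasome-bound deubiquitinases or ligases, 1 of 6 ubiquitin genes or activating enzymes, 1 of 3 assembly or import factors (Pomp), 1 of 3 genes of the NRF1 pathway (Nfe2l1) and 1 of 3 genes of peptide transport and trimming (Tap2). Tap1 and Psmb9 rose. None of 6 shuttle factors and neither regulatory-particle subunit outside the naming rule (Adrm1 and Shfm1) passed. The ubiquitin genes Ubb and Rps27a did not pass either. In KO+f against KO+EV Uba1 was the only related gene called. That is 1 of 32 lower (3.125%), where 4.39% of all genes fell, and 0 higher, where 6.88% rose.

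Of the inducible catalytic genes 1 of 3 was called. In KO+s against KO+EV Psmb9 rose by 0.81 ± 0.28 (edgeR adjusted p = 0.043, passing in 2 of 6 fits with a library left out), while Psmb8 (-0.03 ± 0.25) and Psmb10 (-0.04 ± 0.19) did not pass. The sum over Psmb8, Psmb9 and Psmb10 was 334, 330.0 and 149 CPM in KO+EV, 344, 398 and 331 in KO+f and 266, 284 and 292 in KO+s. As a share of reads over all 6 catalytic genes this was 55.8, 54.5 and 34.0% in KO+EV, 60.7, 60.1 and 56.5% in KO+f and 57.7, 58.8 and 55.3% in KO+s. KO+EV library 3, rich in granulocyte transcripts, was the low value in each case, and it was also the lowest leukaemia library for 9 interferon-response genes (225 CPM). Those genes summed to 388 to 457 CPM in KO+s, above WT+EV (259 to 301), KO+EV (225 to 333) and KO+f (264 to 367). Their part in the higher Psme1, Psmb9 and Tap1 of KO+s was not tested.

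**Figure D4:**
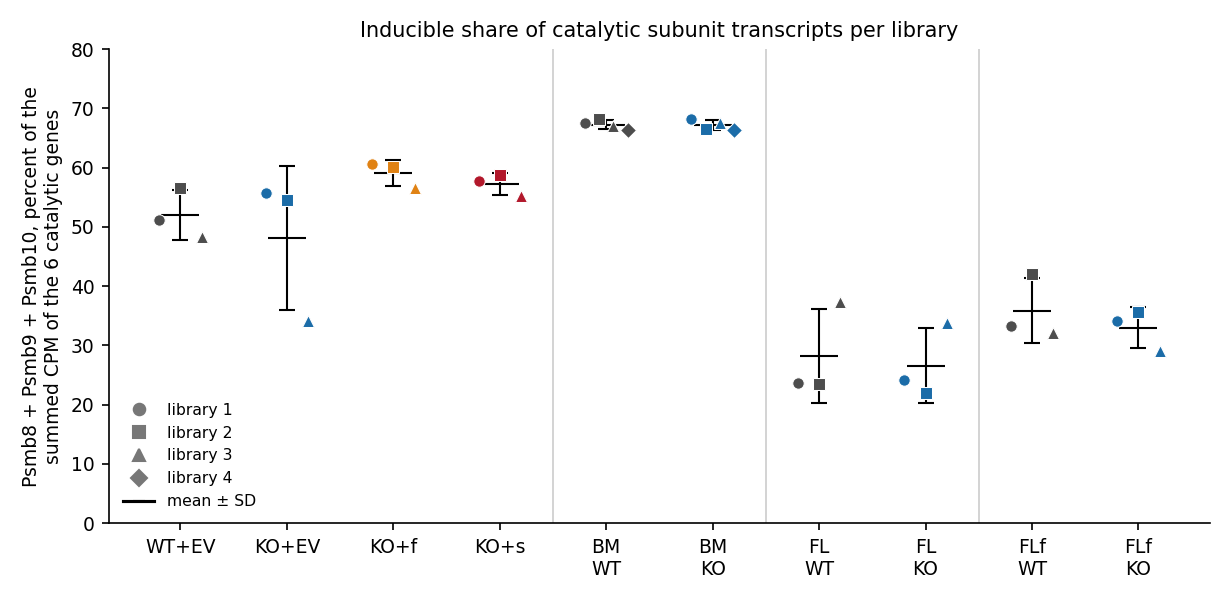
Reads on Psmb8, Psmb9 and Psmb10 as a percentage of reads on the 6 catalytic genes (vertical axis, from 0) in each library, with group mean ± SD. BM libraries lie between 66.3 and 68.2%, FL libraries between 21.9 and 37.4%.

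Across HSCs the inducible share was 67.3 ± 0.82% in BM wild type and 67.1 ± 0.85% in BM libraries labelled knockout (SD, n = 4), the tightest values of any group. It was 28.2 ± 7.97% and 26.6 ± 6.33% in FL, and 35.9 ± 5.45% and 33.0 ± 3.43% in FLf (SD, n = 3). In FL the libraries numbered 3 of both genotypes stood above the rest, with 37.4 and 33.8% against 21.9 to 24.1%. The same 2 libraries were highest for Psme1 (223 and 187 CPM against 125 to 138), Psme2 (56.8 and 50.6 CPM against 27.1 to 34.5) and the interferon-response genes (448 and 351 CPM against 113 to 141). Genotype did not separate them.

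In adult HSCs no proteasome gene passed. In BM 0 of 44 members were called by edgeR or DESeq2, against 0% of all 13495 genes, and 1 of 44 had an unadjusted p under 0.05, against 8.45% of all genes. The median log2 change was -0.06, with -0.03 over all genes, and 27 of 44 members lay below 0, against 53.8% of all genes. Psmd1 was nearest, at 206, 162, 207 and 193 CPM in wild type and 270.1, 291, 231 and 254 in libraries labelled knockout (0.45 ± 0.14, adjusted p = 0.521). Psmc6 (0.31 ± 0.14, adjusted p = 0.591) and Psme3 (0.28 ± 0.14, adjusted p = 0.606) came next.

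For Psmd1, Psme3 and the alpha subunit Psma4 the range of the libraries labelled knockout lay above the wild-type range, 3 of 44 against 3.07% of all genes. For 0 of 44 it lay below, against 2.76%. The wild-type libraries were the more spread: the member sum was 5944.5, 8163, 7703 and 9359 CPM, and 8 immediate-early genes summed to 17572, 15787.5, 12438.5 and 6634 CPM. The libraries labelled knockout lay between 6198 and 8293 CPM for those genes. Psmb5 followed the spread, with 33.5, 70.7, 59.3 and 91.4 CPM in wild type and 52.1 to 75.2 in those labelled knockout (-0.08 ± 0.27). Summed granulocyte CPM was 558 to 715 in wild type and 380, 371, 640 and 1725 in the libraries labelled knockout, the fourth standing apart. The part of the immediate-early and granulocyte differences in these values was not tested.

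In fetal HSCs lacking total PRDM16 no proteasome gene passed either. In FL 0 of 43 members were called by edgeR or DESeq2, as 0% of all 15590 genes were. Of the 43, 39 had a log2 change above 0 and 4 below, against 50.1% of all genes below, and the median was 0.09, against -0.00062 over all genes. An unadjusted p under 0.05 was found for 1 of 43, against 4.74% of all genes. That gene was the lid subunit Psmd11, at 64.7, 82.7 and 71.7 CPM in wild type and 88.7, 93.8 and 85.2 in knockout (0.33 ± 0.12, adjusted p = 0.9998). Psmc2 (0.18 ± 0.10) and the chaperone Psmd5 (0.18 ± 0.10) followed. Ranges did not overlap for 3 of 43 members that were higher (Psmd11, Psmd5 and the lid subunit Psmd6), against 3.67% of all genes, and for 0 that were lower, against 7.31%. Summed CPM of 11 granulocyte genes was 170, 261 and 1809 in wild type and 743, 1457 and 13348 in knockout, higher in the knockout of each numbered pair and highest in FL knockout library 3. Summed CPM of 8 erythroid genes was 2297 to 3700 and of 6 hepatocyte genes 9.68 to 202 over the 6 libraries, both with overlapping genotypes. Their part in the FL values was not tested.

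In fetal HSCs with s-PRDM16 only, no proteasome gene passed. In FLf 0 of 44 members were called by edgeR or DESeq2, as 0% of all 13631 genes were, and 0 of 44 had an unadjusted p under 0.05, against 2.62%. Of the 44, 35 had a log2 change above 0 and 9 below, against 51.3% of all genes below. The median was 0.06, against -0.01 over all genes. The member sum was 12206, 11115.5 and 10584 CPM in wild type and 12598, 11012 and 9427 in knockout. Libraries numbered 1 were highest and those numbered 3 lowest in both genotypes. Psmd10, a chaperone of the base also called gankyrin, had the smallest p (0.21 ± 0.12, adjusted p = 0.9992), then Psma8 (-0.49 ± 0.38) and Psma6 (0.18 ± 0.14). Summed CPM of 11 granulocyte genes was 7045, 3440.2 and 21375 in wild type and 7623, 31993 and 47339 in knockout, and its part was not tested.

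**Figure D5:**
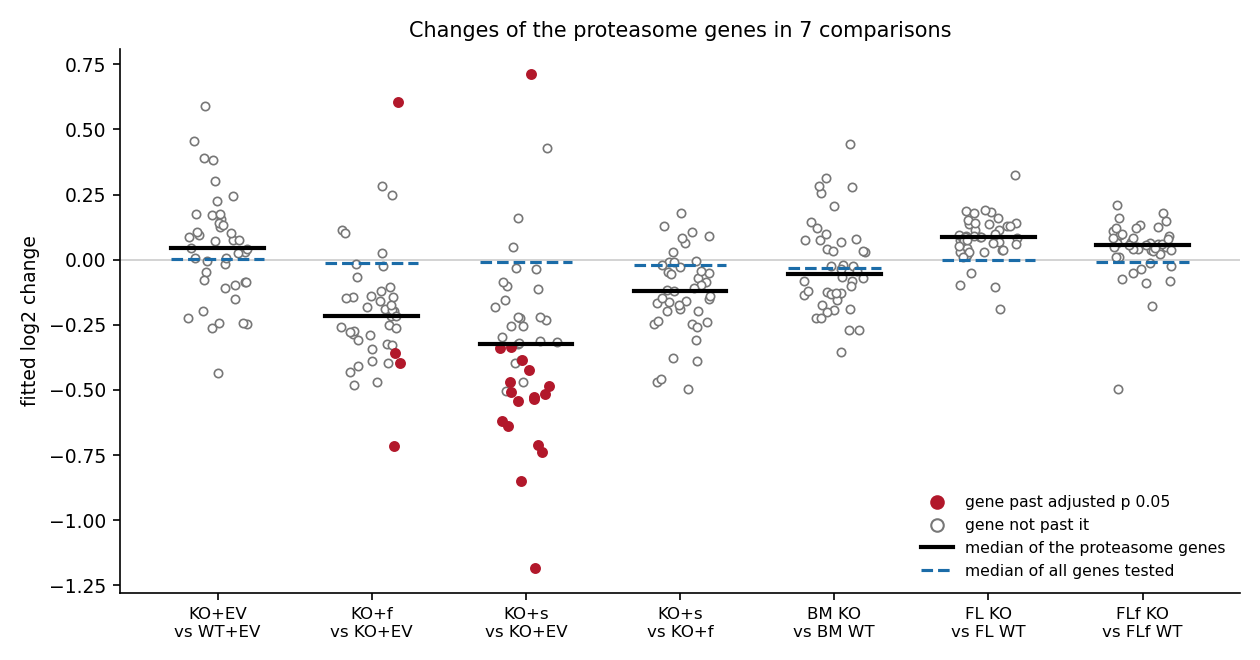
Fitted log2 change (vertical axis) of each proteasome gene in 7 comparisons, with the median of these genes (solid) and of all genes tested (dashed). Genes past an adjusted p of 0.05 are filled and occur only in KO+f and KO+s against KO+EV, where the medians are -0.21 and -0.32.

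Followed through the HSC comparisons, the main genes had no adjusted p under 0.606. The catalytic genes gave -0.08, -0.17 and 0.03 for Psmb5, Psmb6 and Psmb7 in BM, 0.19, 0.03 and 0.15 in FL and 0.12, -0.05 and 0.15 in FLf, on the log2 scale with SEs of 0.12 to 0.27. Psme1 was at -0.23 ± 0.18, -0.11 ± 0.25 and -0.18 ± 0.17 in BM, FL and FLf, and Psme2 at -0.08 ± 0.22, -0.10 ± 0.34 and -0.08 ± 0.18. Psme3 was at 0.28 ± 0.14, 0.03 ± 0.13 and 0.04 ± 0.26, and Psme4 at -0.12 ± 0.17, -0.19 ± 0.15 and 0.13 ± 0.16. Psmf1 was at 0.03 ± 0.15, 0.08 ± 0.09 and 0.12 ± 0.11, and Psmd2 at 0.12 ± 0.20, 0.08 ± 0.10 and 0.02 ± 0.19. Psmb8, Psmb9 and Psmb10 did not pass either.

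The knockout effects were also compared with each other in joint fits. For the effect in FLf minus that in FL, 0 of 43 members passed in edgeR or DESeq2, as 0% of all genes did, with Psme4 (0.30 ± 0.21), Psmd11 (-0.30 ± 0.29) and Psmd5 (-0.15 ± 0.15) nearest. For the effect in FL minus that in BM, 0 of 43 passed, against 0.00627% of all genes, with Psmd1 (-0.36 ± 0.19), Psme3 (-0.28 ± 0.19) and Psmd11 (0.32 ± 0.22) nearest. In the same order, 335 of 15777 and 1268 of 15949 genes had an unadjusted p under 0.05, among them 0 members in both joint fits.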

How the data were processed

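Poly-A RNA libraries were prepared with a TruSeq kit, and the HSC libraries were first amplified with a low-input SMARTer kit, per the labels' protocols. The authors deposited whole-number read counts per gene in 4 tables. Illumina bcl2fastq 2.17, TopHat, DESeq and the mm9 build are named in the submitters' processing notes. The counting tool, annotation and strand setting are not given in the sources used here, so overlapping genes and near-identical copies cannot be told apart.

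Groups came from sample labels. Spike-in rows (92 in BM with 0 counts, 92 in FLf with 1 count) were left out. CPM is the count divided by the library's total over genes, times 1000000. Changes were tested with edgeR 4.0.16 (quasi-likelihood, robust, filterByExpr, TMM; R 4.3.3) and Benjamini-Hochberg adjustment over all genes of a table, with a threshold of 0.05. The 12 leukaemia libraries shared one fit, each HSC table had its own, and tables were joined only to compare knockout effects. The SE is the log2 change divided by the square root of F. The scripts were tested on simulated data. Alternatives were DESeq2 1.42.0, RLE scaling, no filter, only the 2 groups compared, a replicate block and leaving out each library. KO+f and KO+s against WT+EV were added after seeing the data.

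The members and all gene lists were chosen with earlier results of these data known. Named were up to 4 members per direction with the smallest p among those passing, or the 3 smallest p-values where fewer than 3 passed, with Psmb5, Psmb6, Psmb7, Psme1 to Psme4, Psmf1 and Psmd2 in every group. Other genes named within a role were chosen after their values were seen. In the fetal tables same-numbered libraries deviated together from their group means (correlations of 0.415, 0.202 and 0.626 in FL and 0.624, 0.351 and 0.519 in FLf), a pairing read from the data. FL knockout library 2 correlated more with another wild-type library than with the one of its own number. No 2 libraries within a table agreed within sampling noise (lowest chi-square per degree of freedom 12.2 over 124 pairs).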

Additional observations from a re-analysis of the deposited data

Results flagged for a closer look

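Psme2, one of the interferon-inducible activator genes, was counted at 212 CPM in the second BM library labelled knockout and at 167 to 172 in the 3 others of its group. The gap to the nearest library was 0.892 of the group's range. Among 28 groups of values examined in this way it was the only one found, and chance marks about 1 in 20 such groups.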

How the results depend on the processing

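No called gene reversed direction under any alternative run. Leaving out a library turned the sign of member medians near 0: they ran from -0.02 to 0.13 in KO+EV against WT+EV, -0.18 to 0.06 in BM, -0.08 to 0.16 in FLf, -0.16 to 0.10 for the FLf minus FL effect and -0.02 to 0.22 for the FL minus BM effect. The medians of the other 6 comparisons kept their sign. The count of proteasome genes called in KO+f against KO+EV, 4 in the reported fit, was 2 without the low-count filter and 0 when only the 2 groups were fitted, 6 with DESeq2, and 0 to 4 when a library was left out. In KO+s against KO+EV the 18 calls became 11 to 19 when a library was left out, 20 with DESeq2, 16 without the filter and 19 with only the 2 groups. In KO+f against WT+EV the 2 calls became 0 without the filter, 1 with only the 2 groups, 3 with DESeq2 and 0 to 1 when a library was left out. In KO+s against WT+EV the 15 calls became 1 to 14 when a library was left out. The cause of these shifts was not tested, apart from the fewer libraries of a left-out fit. With the replicate block, calls were 3 in KO+f and 18 in KO+s against KO+EV. In leukaemia and BM most same-numbered libraries were less alike (correlations of 0.021, -0.050 and -0.019 for KO+s against KO+EV). Correlations ran from -0.182 to 0.289 over the leukaemia comparisons and from -0.032 to 0.203 in BM. Under the block Psmd2 (adjusted p = 0.0513) and Psmc2 (adjusted p = 0.0504) did not pass in KO+f and Psmd7 did (adjusted p = 0.0447). In the fetal tables the block called 0 members, as without it. Counts cover sampling of reads only, and Psma8 and Psmb11 were too thin in leukaemia to be compared.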

Other observations

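The tables differed in which subunit was abundant. Psmd13, a lid subunit, was at 413 to 504 CPM in FL, 183 to 273 in FLf, 96.2 to 176 in BM and 101.8 to 191 in leukaemia. FL and FLf are both fetal liver HSCs from separate tables. Summed CPM of 8 erythroid genes was 2297 to 3700 in FL and 7.39 to 41.9 in FLf. The globin genes, 4 of the 8, are listed at 0 in every FLf library and also in every BM library. They were under 1 CPM in every leukaemia library, and how each table counted them is not given. Table, counting, line and cell content cannot be told apart. Psmb5 was at 139 to 193 CPM in FL and 94.5 to 108 in FLf.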
